A study of Homo sapiens with 12 samples.

Results

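The muscle miRNAs of the miR-1, miR-206 and miR-133 family were looked up by name in a table of mature miRNA counts from human acute myeloid leukemia (AML) cells. The names sought were hsa-miR-1, hsa-miR-206, hsa-miR-133a and hsa-miR-133b with either arm, and 1 of the 1204 miRNAs in the table matched, hsa-miR-1-3p. The 5p arm of miR-1, both arms of miR-133a, miR-133b and miR-206 are not analysed here, so whether they follow hsa-miR-1-3p could not be asked, and the share of hsa-miR-1-3p within its family was not computed.

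Small RNA libraries were made from MV4-11 and Molm-14, established human AML cell lines, to ask how loss of MPC1 changes their miRNA profile. MPC1 is a subunit of the carrier that brings pyruvate into mitochondria. In each line, cells in which MPC1 had been deleted with CRISPR/Cas9 and a lentiCRISPRv2 construct carrying 1 guide RNA and a GFP marker (MPC1 KO) were compared with cells that had received the nontargeting Empty Vector (EV). Each of the 4 groups, MV4-11 EV, MV4-11 MPC1 KO, Molm-14 EV and Molm-14 MPC1 KO, holds 3 libraries. All KO cells of a line carry the same guide. Nothing in the labels says if a group's libraries were separate cultures, or if KO cells were 1 clone, so the p-values measure the spread between these libraries, which may be technical.

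miR-1 and miR-133a are made from shared primary transcripts and are known for their abundance in heart and skeletal muscle, where miR-1 favours differentiation of muscle cells. miR-206 is the skeletal muscle relative of miR-1 and is transcribed together with miR-133b. A mature miRNA guides Argonaute proteins to messenger RNAs mainly through its seed, the bases near its 5′ end, so miRNAs with the same seed share many targets.

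The mature sequences of the family are given first, since the name of a count stands for a sequence and the seeds split the family into 2 groups. They are RefSeq sequences on GRCh38.p14, written 5′ to 3′, with the seed (bases 2 to 8) in capitals.
hsa-miR-1-3p: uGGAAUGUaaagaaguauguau
hsa-miR-206: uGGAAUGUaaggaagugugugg
hsa-miR-133a-3p: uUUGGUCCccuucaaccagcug
hsa-miR-133b: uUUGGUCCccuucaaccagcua
Counting positions from 1 at the 5′ end, miR-206 differs from hsa-miR-1-3p at 4 of 22 bases, A11G, A17G, A21G and U22G, all outside the seed. miR-133b differs from miR-133a-3p at 1 base, G22A. Of the other miRNAs in the table that could be matched to RefSeq, 0 carry the seed of hsa-miR-1-3p.

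hsa-miR-1-3p is encoded at 2 places. On GRCh38 it lies at chr18:21829015-21829036 on the minus strand, in the MIR1-2 hairpin, which is within an exon of the noncoding host gene MIR133A1HG and opposite an intron of MIB1, and at chr20:62554351-62554372 on the plus strand, in the MIR1-1 hairpin, which is within an intron of the noncoding host gene MIR1-1HG. The hairpin of miR-133a lies 3218 bases from MIR1-2 (MIR133A1) and 10535 bases from MIR1-1 (MIR133A2), and 4488 bases separate MIR206 from MIR133B on chromosome 6. The sequences below show the mature miRNA in lower case and the next 8 bases of the genome in capitals, written as RNA, because those bases are what differs between the loci.
MIR1-2: uggaauguaaagaaguauguauUUUUGGUA
MIR1-1: uggaauguaaagaaguauguauCUCAGGCC
The mature sequence occurs exactly 2 times in the genome, the loci differ from the first base after its 3′ end, and the 4 bases read before its 5′ end are the same at both. A read of the mature miRNA alone therefore matches both loci, and the counts of hsa-miR-1-3p do not say which hairpin was transcribed.

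Total counts per library ranged from 3870104 to 8683456. Of the miRNAs listed as known from white blood cells, some were abundant and others were not. The myeloid identity of the lines was not settled by them. Levels here are in CPM (counts-per-million), with library totals scaled by TMM, a normalization for differences in composition between libraries. miR-142-3p averaged 21200 CPM in MV4-11 EV and 42600 in Molm-14 EV, and miR-223-3p 3250 and 2730. In contrast, miR-150-5p averaged 2.06 and 2.89 CPM, and miR-181a-5p held 34 counts over all libraries. The other arms of the miR-181a hairpins, each encoded at 1 locus, held 85962. The count of miR-181a-5p, which has 2 loci, may therefore understate its level, which was not tested. MPC1 itself is a messenger RNA and is not measured by these libraries, so the deletion was not checked here. Of the 1204 miRNAs, 659 passed a filter on low counts and were tested, hsa-miR-1-3p among them. It passed with 223 counts over all 12 libraries.

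hsa-miR-1-3p was higher after MPC1 deletion in both lines. The MV4-11 EV libraries had 18, 10 and 8 reads counted on it, which is 2.07, 2.29 and 2.04 CPM of all counts. The MV4-11 MPC1 KO libraries had 42, 51 and 56, or 8.45, 9.24 and 10.4 CPM. Every KO library was above every EV library, and even the exact 95% (Clopper-Pearson) intervals of the libraries did not meet, the highest EV bound being 4.20 and the lowest KO bound 6.09 CPM. The mean was 2.12 ± 0.184 CPM (SD, n = 3) in EV and 8.86 ± 0.910 CPM (SD, n = 3) in KO after TMM scaling. In edgeR's quasi-likelihood test over all 659 miRNAs hsa-miR-1-3p rose by 2.04 on the log2 scale (SE 0.283, adjusted p = 2.35e-05). That comparison called 3.03% of the tested miRNAs in either direction and 1.97% as higher in KO, and 10.3% had every KO library above every EV library.

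Molm-14 started from a lower level. With the Empty Vector, hsa-miR-1-3p had 2, 1 and 1 counts, that is 0.381, 0.258 and 0.216 CPM of all counts, and with MPC1 deleted it had 9, 17 and 8 counts, or 1.63, 2.93 and 1.86 CPM. The Molm-14 EV group is thus at the limit of counting, with at most 3 counts in any library, and its intervals reach 1.44 CPM, whereas the lowest KO bound is 0.746. The intervals of single libraries overlap between the groups, though the values themselves do not. Mean levels were 0.297 ± 0.0909 CPM in EV and 2.20 ± 0.802 CPM in KO (SD, n = 3 each). hsa-miR-1-3p rose by 2.78 on the log2 scale (SE 0.536, edgeR adjusted p = 0.00109) in a comparison that called 6.83% of the miRNAs, 2.73% as higher in KO, while 12.3% had all KO libraries above all EV libraries. This fitted fold change depends on the prior count that edgeR adds to low counts. The ratio of summed counts per summed total was 7.48, with a 95% counting interval from 2.67 to 29.0, against 4.43 (3.06 to 6.56) in MV4-11. These intervals and those above cover counting error only, since reads amplified by PCR are not independent molecules.

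**Figure D1:**
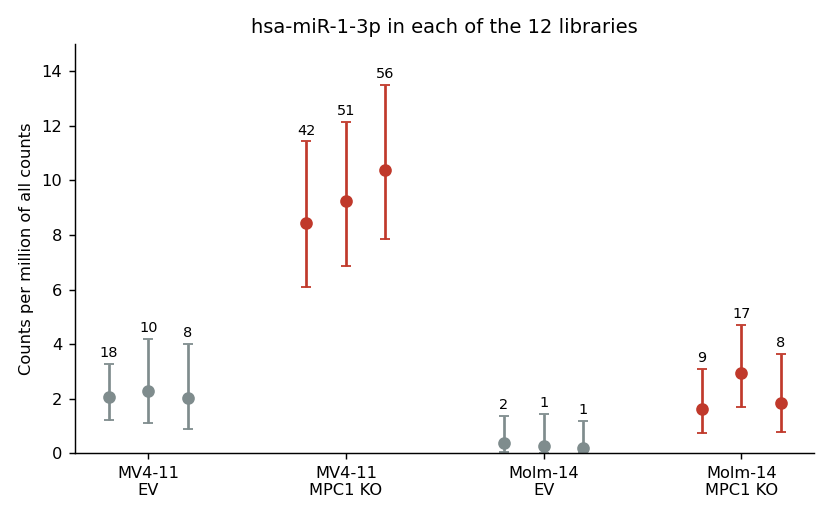
CPM of hsa-miR-1-3p in each library, before TMM scaling. Points are libraries, whiskers are exact 95% counting intervals and the numbers above them are the counts; the MV4-11 MPC1 KO libraries lie between 8.45 and 10.4 and the Molm-14 EV libraries between 0.216 and 0.381.

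Among increases, hsa-miR-1-3p had the highest fitted log2 fold change of the 659 miRNAs in each line. In Molm-14 that rank rests on 4 EV counts. In MV4-11 miR-296-5p, which was not called, was close at 1.93, with means of 0.0798 CPM in EV and 0.282 in KO. How stable the ranks are was not tested. By size in either direction hsa-miR-1-3p ranked 5 in MV4-11 and 3 in Molm-14. The median log2 fold change of all tested miRNAs was -0.00351 (MV4-11) and -0.0128 (Molm-14). Upper-quartile scaling moved that median to -0.117 in MV4-11 and 0.0549 in Molm-14, and the calls from 13 higher and 7 lower to 10 and 15 in MV4-11 and from 18 higher and 27 lower to 30 and 23 in Molm-14, with hsa-miR-1-3p higher in both. By p-value it ranked 6 in MV4-11 and 17 in Molm-14. Only hsa-miR-1-3p and hsa-miR-132-3p, 0.303% of the tested miRNAs, passed the test and were higher in KO in both lines. hsa-miR-132-3p, which is known as a target of the transcription factor CREB, rose by 0.76 (SE 0.154, edgeR adjusted p = 0.00339) in MV4-11 and by 0.49 (SE 0.149, adjusted p = 0.0448) in Molm-14, both as log2 values. It lost the call in Molm-14 with replicate numbers as a block (adjusted p = 0.0701). Every KO library was above every EV library in both lines for 1.67% of the tested miRNAs, hsa-miR-1-3p and hsa-miR-132-3p included.

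**Figure D2:**
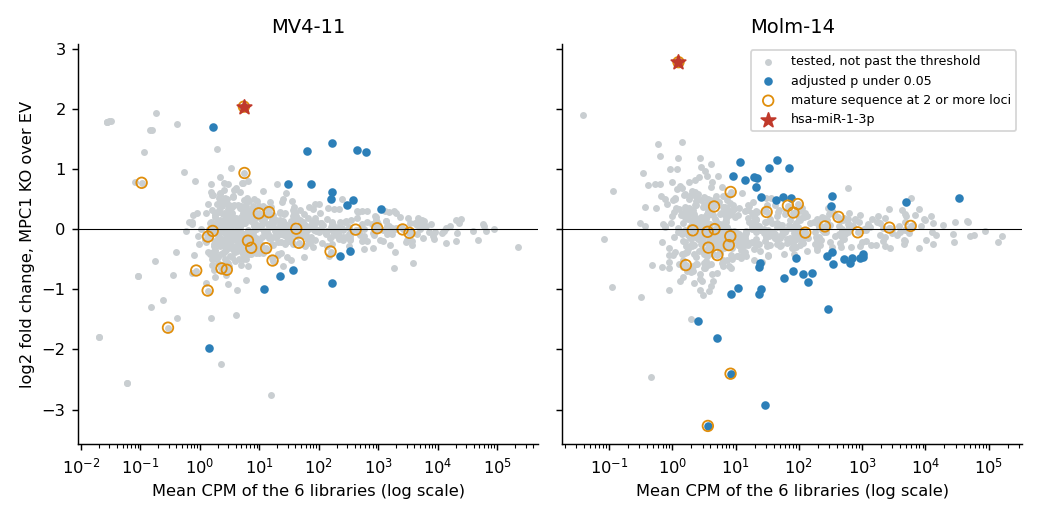
log2 fold change of MPC1 KO over EV against mean CPM (log scale) of the 6 libraries of each line, 1 point for each of the 659 tested miRNAs. The star is hsa-miR-1-3p, at 2.04 in MV4-11 and 2.78 in Molm-14 (from 4 EV counts), the highest point in each panel. Blue points had an adjusted p under 0.05 and open circles are miRNAs with the same mature sequence at 2 or more loci.

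The size of the increase was not shown to differ between the lines. The effect in Molm-14 minus that in MV4-11 was 0.74 on the log2 scale (SE 0.634, edgeR adjusted p = 0.601), where 6.68% of the miRNAs differed. The SE is close to the difference itself, and the Molm-14 side rests on 4 EV counts in all, so this comparison does not show that the lines responded alike.

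The lines differed in level both with and without MPC1. hsa-miR-1-3p was lower in Molm-14 EV than in MV4-11 EV by a log2 difference of -2.72 (SE 0.535, edgeR adjusted p = 0.000101) and lower in Molm-14 KO than in MV4-11 KO by -1.99 (SE 0.284, adjusted p = 1.41e-06). Differences of this kind were common, as 61.9% of the tested miRNAs differed between the EV groups, 28.4% being lower in Molm-14, and 62.4% between the KO groups, 29.4% being lower in Molm-14. The ratio of summed counts, MV4-11 over Molm-14, was 7.29 (95% counting interval 2.61 to 28.2) in EV and 4.31 (2.96 to 6.46) in KO.

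From the lowest to the highest mean, the order of the groups was Molm-14 EV, MV4-11 EV, Molm-14 KO and MV4-11 KO. The middle neighbours were not separated. Molm-14 KO exceeded MV4-11 EV by 0.0803 CPM, their libraries overlapped, the exact two-sided permutation test gave p = 1.0 and the ratio of their summed counts was 1.03 (0.623 to 1.69). The other neighbours, and EV and KO within each line, did not overlap, and each gave an exact two-sided permutation p = 0.1, the smallest that 3 libraries against 3 allow.

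In 3 of the 4 groups the replicates spread less than sampling of so few counts alone would give, and in Molm-14 KO somewhat more. With 3 libraries a group these spreads are loosely estimated. The chi-square per degree of freedom, the spread relative to counting error, was 1.24 in Molm-14 KO and 0.0382 to 0.523 in the other groups. An excess over counting error was thus not shown in Molm-14 KO. In MV4-11 EV the coefficient of variation of hsa-miR-1-3p was 8.68%, where counting alone gives 28.9%, and in MV4-11 KO it was 10.3% against 14.2%. It was 30.6% against 86.6% in Molm-14 EV and 36.4% against 29.7% in Molm-14 KO, the group in which replicate 2 stood at 2.93 CPM and the others at 1.63 and 1.86.

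By its counts, hsa-miR-1-3p did not become one of the abundant miRNAs of these cells after MPC1 deletion. How reads matching its 2 loci were counted is not given, so the ranks may understate its level. Ranked by level among the 659 tested miRNAs of each library, it held places 524 to 551 with the Empty Vector and 327 to 339 with MPC1 deleted in MV4-11. In Molm-14 the places were 639 to 643 in EV and 485 to 573 in KO, so all 3 KO libraries ranked it higher than any EV library did. In MV4-11 EV its neighbours in mean level were miR-6513-3p (2.16 CPM) and miR-3187-5p (2.14 CPM) above it and miR-3183 (2.10 CPM) and miR-6857-3p (2.09 CPM) below it. None of these 4 passed the edgeR test in either line. The nearest to doing so was miR-3187-5p in MV4-11, with a log2 fold change of 0.75 (SE 0.326, adjusted p = 0.284).

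The same mature sequence at more than 1 locus was looked at as a property of the count itself. By RefSeq names, 1069 of the 1204 miRNAs were matched and 38 of these, hsa-miR-1-3p among them, are encoded at 2 or more loci. Together the 38 held 0.905% of all counts with a median of 183 summed counts, against 92.2% and a median of 104 for the 1031 encoded at 1 locus. hsa-miR-1-3p ranked 17 of the 38 by summed count. Several arms known as abundant were near the bottom relative to their own hairpins. miR-181a-5p, usually the main product of its hairpins, held 34 counts over all libraries, while the single-locus arms of the same hairpins held 85962. miR-24-3p held 157 against 38827 and miR-16-5p held 1320 against 143418. Of the 20 multi-locus miRNAs with a single-locus arm in the table, 11 had fewer counts than those arms together, and 3 had under 1% of the counts of their hairpins. Others were abundant, such as miR-92a-3p with 282341 counts against 26532 and miR-128-3p with 163927 against 3928, so the low counts did not extend to the whole class.

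**Figure D3:**
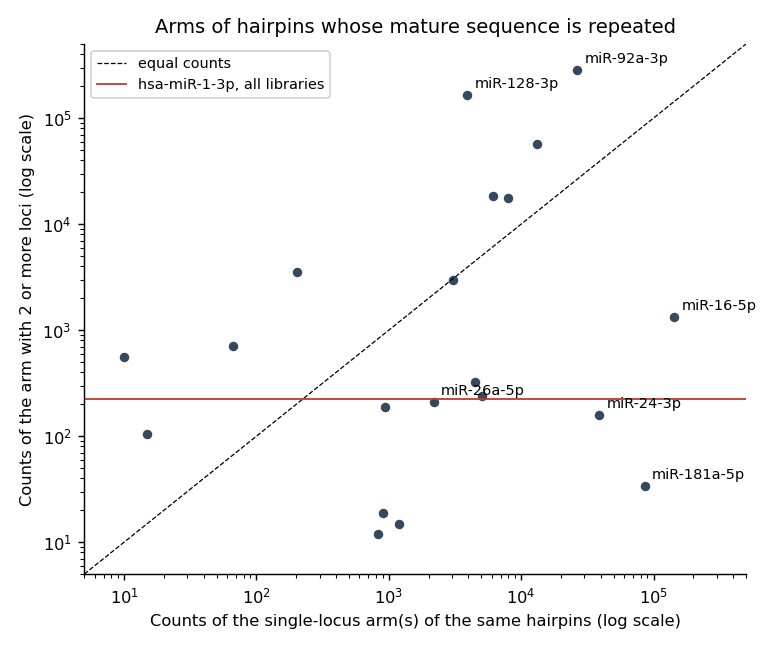
Summed counts over the 12 libraries of 20 miRNAs whose mature sequence lies at 2 or more loci, against the summed counts of the single-locus arms of the same hairpins, both on log scales. The dashed line marks equal counts and the red line the 223 counts of hsa-miR-1-3p, which has no such partner here; miR-181a-5p lies at 34 against 85962 and miR-92a-3p at 282341 against 26532.

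How reads that match several loci were treated is not given in the sources used here, and its part in the level of hsa-miR-1-3p was not tested. Calls in the class of miRNAs with 2 or more loci are given beside the share of all tested miRNAs called. With 23 tested members they are no result about the class. Of its 23 tested members, hsa-miR-1-3p alone was higher in MV4-11 KO and none was lower (median log2 fold change -0.122, with 3.03% of all tested miRNAs called). In Molm-14 hsa-miR-1-3p was higher and 2, miR-138-5p and miR-196a-5p, were lower (median 0.00211, with 6.83% of all called). The class took 0.699% to 0.876% of the counts in MV4-11 EV and 0.748% to 0.843% in KO, and 0.841% to 1.09% with the Empty Vector and 0.956% to 1.12% with MPC1 deleted in Molm-14.

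Of 10 other miRNAs of heart and skeletal muscle listed, 6 were in the table and 2, miR-499a-5p and miR-486-5p, were tested. Neither passed in MV4-11, where 3.03% of all tested miRNAs were called, or in Molm-14, where 6.83% were, and with 2 tested members this is no result about the list. The summed level of the 6 ranged from 20.2 to 29.7 CPM in MV4-11 EV, 25.1 to 37.1 in MV4-11 KO, and, in Molm-14, 12.3 to 14.6 in EV and 11.3 to 14.3 in KO. miR-499a-5p, which is made from an intron of the myosin gene MYH7B, held 127, 90 and 110 counts in MV4-11 EV, 136, 205 and 128 in MV4-11 KO, and, in Molm-14, 55, 35 and 50 with EV and 48, 57 and 49 with KO. Scaled to library depth, KO and EV overlap in both lines. Its log2 fold change was 0.45 (SE 0.196, edgeR adjusted p = 0.284) in MV4-11 and -0.06 (SE 0.233, adjusted p = 0.935) in Molm-14, and the latter turned sign with upper-quartile scaling. In MV4-11 the value was 0.25 without EV replicate 1 and likewise 0.25 without KO replicate 2. At 10.2 to 27.8 CPM its counted level was above that of hsa-miR-1-3p in every group. miR-499a-5p has 1 locus, whereas the level of hsa-miR-1-3p, with 2, may be understated.

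Markers of other cell types were compared in the same way, against the 3.03% (MV4-11) and 6.83% (Molm-14) of all tested miRNAs called. The smooth muscle arms of miR-143 and miR-145 had a summed level of 641.7 to 739.8 CPM in MV4-11 EV, 533.2 to 614.1 in MV4-11 KO, and, in Molm-14, 182.5 to 206.8 in EV and 102.7 to 105.8 in KO. None of the 4 passed in MV4-11 (median -0.182), whereas 2 of 4 fell in Molm-14 (median -0.803), the direction opposite to hsa-miR-1-3p. miR-143-3p fell by 0.88 (SE 0.105, edgeR adjusted p = 3.74e-06) and miR-145-3p by 1.52 (SE 0.326, adjusted p = 0.00305) as log2 values. In MV4-11 miR-143-3p had -0.33 (SE 0.0994, adjusted p = 0.0674), which passed with upper-quartile scaling (adjusted p = 0.0106), without EV replicate 1 (0.0303) and without KO replicate 2 (0.0276). None of the 3 red cell miRNAs passed in either line (medians -0.179 and 0.403), and neither did liver miR-122-5p, the 1 tested miRNA of those typical of other tissues, of which 5 of 28 were in the table. Of the 11 blood-lineage miRNAs 9 were tested, with none called in MV4-11 (median -0.183) and, in Molm-14, 2 higher, miR-155-5p and miR-155-3p, and 1 lower, miR-146a-5p (median 0.145).

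**Figure D4:**
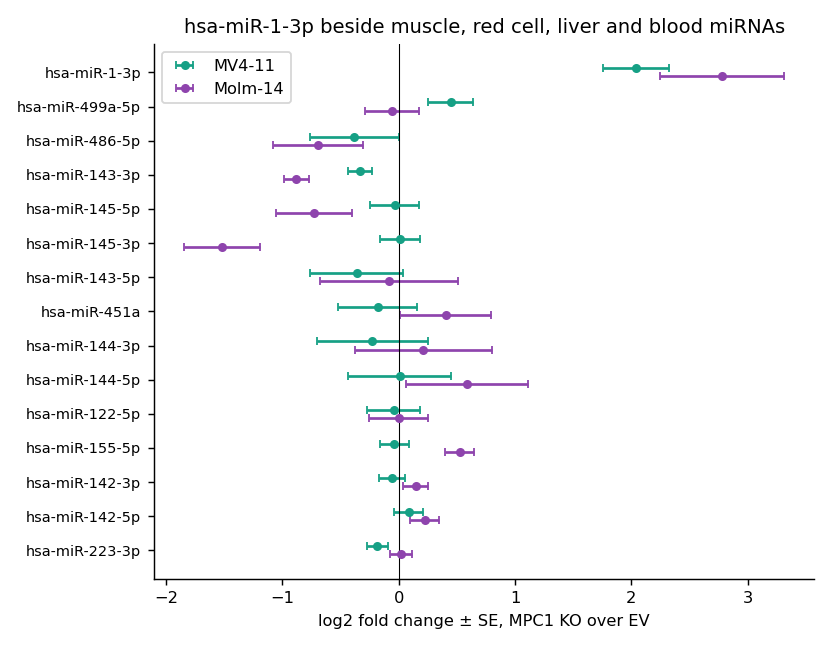
log2 fold change ± SE of MPC1 KO over EV for hsa-miR-1-3p and for listed miRNAs of muscle, red cells, liver and blood, in MV4-11 (green) and Molm-14 (purple). hsa-miR-1-3p lies at 2.04 and 2.78, and miR-499a-5p at 0.45 and -0.06.

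The miRNAs whose levels over the 12 libraries were most like those of hsa-miR-1-3p were found by Pearson correlation of log2 CPM among the other 658. They were miR-874-3p (r = 0.920), miR-4425 (r = 0.860), miR-222-5p (r = 0.846), miR-4518 (r = 0.841) and miR-212-5p (r = 0.835). The 12 points fall into 4 groups and share library depth and cell line, so these values are a description. Of the 5, 4 stayed with a smaller prior count of 0.5 but 1 with Spearman's rank correlation, so the list depends on the measure. miR-874-3p, the most alike, averaged 20.9 CPM in MV4-11 EV, 29.4 in MV4-11 KO, and, in Molm-14, 10.1 in EV and 15.3 in KO. It had the same order of groups as hsa-miR-1-3p except for the middle pair, with a log2 fold change of 0.50 (SE 0.164, edgeR adjusted p = 0.102) in MV4-11 and 0.61 (SE 0.189, adjusted p = 0.0547) in Molm-14. Of the 5, none passed in MV4-11, and in Molm-14 miR-222-5p rose by 0.53 (SE 0.153, adjusted p = 0.0326) and miR-4518 by 1.15 (SE 0.285, adjusted p = 0.0318). miR-212-5p, from the hairpin cluster that also holds miR-132, had 0.63 (SE 0.231, adjusted p = 0.139) in MV4-11 and 0.38 (SE 0.275, adjusted p = 0.51) in Molm-14. Without MV4-11 EV replicate 1 its MV4-11 value was 0.999 and passed (adjusted p = 0.0216). miR-4425, at 1.08 in Molm-14 (SE 0.341, adjusted p = 0.0604), reached 1.73 without Molm-14 EV replicate 2 (adjusted p = 0.00246).

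The increase of hsa-miR-1-3p was computed again under other normalizations, tests and filters and without each library. The log2 fold change stayed within 1.92 to 2.13 for MV4-11 and within 2.44 to 3.08 for Molm-14, where leaving out KO replicate 2, the library with 17 counts, gave the lowest value.

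**Figure D5:**
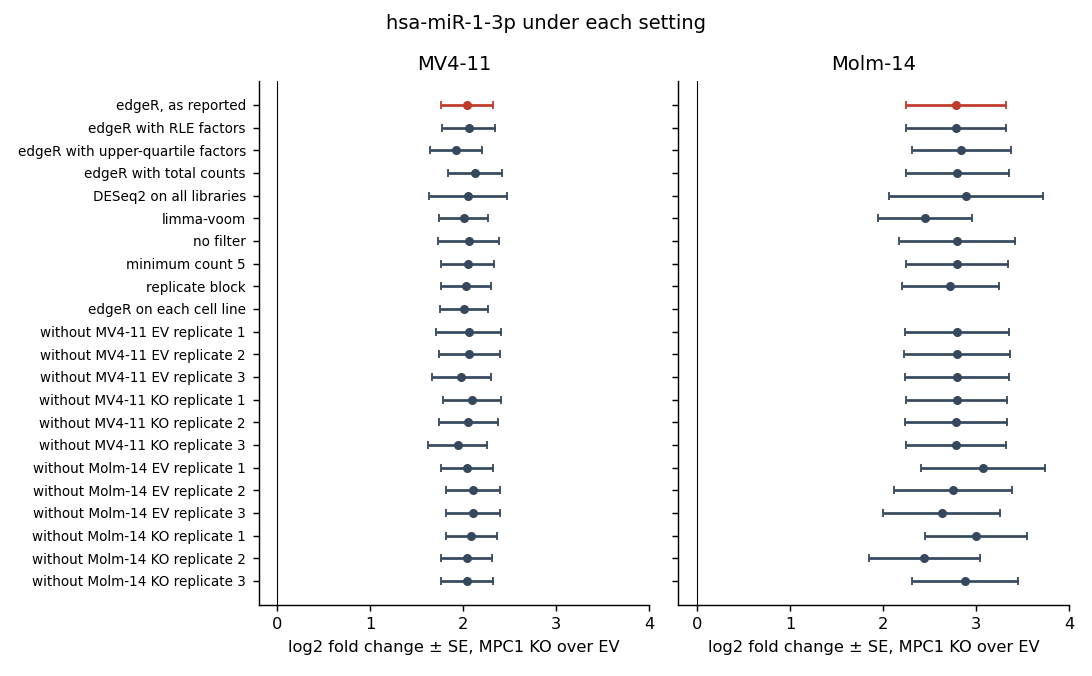
log2 fold change ± SE of hsa-miR-1-3p, MPC1 KO over EV, in MV4-11 and Molm-14 under each normalization, test and filter and without each library. The red point is the value reported above, and the others span 1.92 to 2.13 (MV4-11) and 2.44 to 3.08 (Molm-14).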

How the data were processed

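Small RNA was sequenced from 12 libraries, made with the NEBNext Multiplex Small RNA kit from RNA isolated with the Qiagen miRNeasy kit. The authors deposited raw counts, whole numbers of reads per mature miRNA named as in miRBase, with no normalization. The submitters' notes name STAR 2.5.2, featureCounts 1.5.1 and GRCh38 without saying which step made the counts. How reads matching several loci or miRNAs were counted is not given in the sources used here. If such reads were dropped, the level of a miRNA with 2 loci would be understated.

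Groups were taken from the sample labels. Counts were analysed with edgeR 4.0.16 in R 4.3.3 using filterByExpr (minimum count 10), TMM factors and a robust quasi-likelihood fit of 4 group means over all 12 libraries. Benjamini-Hochberg adjustment ran over 659 miRNAs, with a threshold of 0.05, and the SE was derived from the log2 fold change and F. For single values, exact two-sided permutation tests were run (scipy 1.17.1), and 95% counting intervals were exact. Total counts were 3870104 to 8683456, so that a miRNA with few counts carries wide intervals. Mature sequences were RefSeq's and gene positions GENCODE's on GRCh38, read for the loci and not for the counts. Fits were tested on simulated data with known changes.

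The miRNAs named were the family, listed markers of muscle, blood and other tissues (up to 4 members a list by counts), the 5 most alike by Pearson r, those higher in KO in both lines, and the 2 neighbours in level on either side. miR-143-3p and miR-145-3p, miR-155 arms and miR-146a-5p were named as the called members of their lists, and the multi-locus examples were chosen after their values were seen, as were the multi-locus classes themselves. Members and lists were chosen with earlier results of these data known. Alternatives were RLE, upper-quartile and total-count scaling, DESeq2 1.42.0, limma-voom (limma 3.58.1), no filter, a minimum count of 5, each cell line alone, a replicate block and leaving out each library.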

Additional observations from a re-analysis of the deposited data

Results flagged for a closer look

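For 2 of the 4 listed smooth muscle miRNAs, markers of another cell type, the MPC1 KO effects differed between the lines in the main edgeR fit. That difference, tested as a contrast of the 4 group means, passed for 6.68% of all tested miRNAs. For hsa-miR-143-3p the MPC1 KO effect in Molm-14 minus that in MV4-11 was -0.55 on the log2 scale (SE 0.144, adjusted p = 0.0243), from effects of -0.88 and -0.33. For hsa-miR-145-3p it was -1.53 (SE 0.369, adjusted p = 0.0133), from effects of -1.52 and 0.01. The other 2 listed arms did not pass. Their differences were -0.70 (SE 0.387, adjusted p = 0.331) for hsa-miR-145-5p and, in the other direction, 0.28 (SE 0.721, adjusted p = 0.904) for hsa-miR-143-5p. hsa-miR-145-3p held 20, 17 and 13 counts in Molm-14 EV and 7, 9 and 4 in Molm-14 KO, and hsa-miR-143-3p held 866, 737 and 747 counts in EV and 532, 543 and 413 in KO. The difference for hsa-miR-143-3p did not pass with upper-quartile scaling (adjusted p = 0.143) or in 6 of 12 fits without a library (up to 0.0963), and that for hsa-miR-145-3p did not pass without Molm-14 KO replicate 3 (adjusted p = 0.0531).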

How the results depend on the processing

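hsa-miR-1-3p kept its direction and its side of the threshold in all 5 comparisons under every alternative that gave a value. Without 1 library, its log2 fold change was 1.94 to 2.11 in MV4-11 and 2.44 to 3.08 in Molm-14, the difference between them 0.40 to 1.04, and the differences of Molm-14 from MV4-11 -3.04 to -2.52 in EV and -2.36 to -1.80 in KO; adjusted p reached 0.0119 in Molm-14 over all alternatives. The ratio of summed counts in Molm-14 was 5.95 to 9.26 without 1 library. Fitted alone, Molm-14 gave no value, since the filter removed hsa-miR-1-3p. Same-numbered libraries did not deviate together (correlations -0.127 to 0.116), which gave no sign that the numbers pair them. A small shared effect could be missed by this check, so pairing is not excluded. With the number as a replicate block, hsa-miR-1-3p had 2.03 (adjusted p = 0.000443) in MV4-11 and 2.72 (adjusted p = 0.005) in Molm-14.

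Values that turned sign had an adjusted p of 0.8 or more where they did. With upper-quartile scaling miR-222-5p in MV4-11 was -0.0465, miR-4518 in MV4-11 -0.0191, miR-145-3p in MV4-11 -0.103 and miR-499a-5p in Molm-14 0.00996, and miR-145-3p was -0.0265 with each line alone. Without 1 library miR-222-5p ranged from -0.0549 to 0.14, miR-4518 from -0.13 to 0.43, miR-145-3p from -0.0727 to 0.0749 and miR-499a-5p from -0.14 to 0.072. The 20 miRNAs called in MV4-11 became 31 with DESeq2, 12 without MV4-11 KO replicate 1, 38 without Molm-14 EV replicate 2 and 34 without Molm-14 EV replicate 3, and the 44 for the difference became 22 without MV4-11 KO replicate 3 and 24 to 28 without MV4-11 EV replicate 1 or 2, MV4-11 KO replicate 1 or any of the Molm-14 KO libraries; the cause was not tested. miR-132-3p in Molm-14 lost its call in 5 fits without a library (adjusted p up to 0.147) and in MV4-11 without KO replicate 3 (0.0611). In Molm-14, miR-222-5p lost its call in 4 (up to 0.118) and miR-4518 in 5 (up to 0.132). Calls were also gained. miR-874-3p passed in Molm-14 under 7 of 21 alternatives (adjusted p down to 0.0243), 4 of them without a library, and in MV4-11 in 2 fits without a library, and miR-4425 passed in Molm-14 under 9 of 21. Few counts limit hsa-miR-1-3p in Molm-14 EV, where 4 counts set the fold.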
